A study of Mus musculus with 2 samples.

Results

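The chains described here are those that carry an alpha-beta T-cell receptor to the cell surface and signal for it: the CD3 subunit genes Cd3d, Cd3e and Cd3g, the zeta gene Cd247, the receptor constant genes Trac, Trbc1 and Trbc2, and Ptcra, the gene of the pre-T-cell receptor alpha chain. The 8 genes were chosen by name, and all 8 were found among the 43346 mouse genes in the tables of both libraries. The data are RNA sequencing of thymus from newborn mice, for RNA above 200 nt in size (day 0, strain B6NCrl), each library made from 13 pg of total RNA, which the labels equate with 1 cell. Pup 6 gave replicate 1 and pup 7 gave replicate 2, and both are listed under 1 donor. They form 1 group with no treatment or genotype to compare, so the data give levels and the spread between libraries. In that spread, pup and library preparation cannot be told apart.

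The receptor's alpha and beta chains bind peptide held by an MHC molecule but have very short tails inside the cell. The signal is passed on by CD3 gamma, delta and epsilon and by the zeta chain, whose tails carry the tyrosine motifs that Lck phosphorylates and Zap70 binds. CD3 epsilon pairs with gamma in one dimer and with delta in another. In the thymus the beta chain is made first and pairs with the pre-T-cell receptor alpha chain, and the alpha chain takes that place once its gene has been rearranged.

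The beta constant genes Trbc1 (chromosome 6, 41538218 to 41539881, plus strand, GRCm38) and Trbc2 (chromosome 6, 41546730 to 41548352, plus strand) are near-identical copies, and their sequences decide how far their levels can be told apart. The starts of the copies lie 8512 bases from each other. Both have 518 coding bases in 4 exons, and 23 of these bases differ (95.6% identity). Exon 1 has 375 coding bases with a single difference, exon 3 has 15 differences in 107 bases, and exons 2 and 4 have 3 and 4 differences in 18 bases each. The only difference in exon 1 is C260A, written as the Trbc1 base, the position from 1 at the first base of exon 1, and the Trbc2 base. It is shown first, and the 90 bases of exon 3 that hold most differences follow. Capitals mark bases that differ between the copies, and all strands are plus (chr6:41538448-41538507 for Trbc1 and chr6:41546960-41547019 for Trbc2, then chr6:41539235-41539324 and chr6:41547778-41547867, GRCm38, GENCODE transcripts).
Trbc1 exon 1: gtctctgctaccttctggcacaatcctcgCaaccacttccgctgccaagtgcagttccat
Trbc2 exon 1: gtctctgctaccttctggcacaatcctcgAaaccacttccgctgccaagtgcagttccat
Trbc1 exon 3: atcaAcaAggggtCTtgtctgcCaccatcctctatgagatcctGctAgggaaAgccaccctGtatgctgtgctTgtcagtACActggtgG
Trbc2 exon 3: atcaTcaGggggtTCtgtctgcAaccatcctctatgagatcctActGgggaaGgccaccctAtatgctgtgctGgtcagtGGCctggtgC
In the exon 3 stretch 14 of the 90 bases differ. The tables set the effective length 99 bases below the length, so a stretch of 100 bases was taken as the unit of comparison. Of the 593 such stretches of the Trbc2 transcript, 183 (30.9%) occur unchanged in Trbc1, and the same 183 are 28.7% of the 638 stretches of the longer Trbc1 transcript. Reads from these stretches cannot be assigned by sequence and were divided by the authors' estimate.

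**Figure D1:**
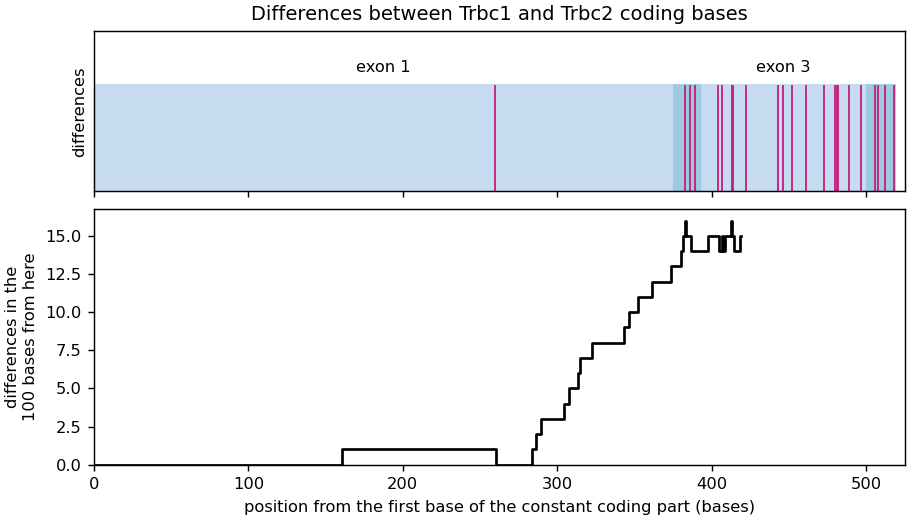
The upper panel marks with a line each of the 23 coding bases that differ between Trbc1 and Trbc2, along the position from the first constant base (shades separate exons 1 to 4), and the lower panel counts the differences in the 100 bases that begin at each position. A single difference lies in exon 1, and the others lie in exons 2 to 4.

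The beta constant genes were the most abundant of the 8 genes. Levels are in TPM: counts divided by transcript length and scaled so that the mouse genes of each library sum to 1000000. Trbc2 stood at 6500 TPM in replicate 1 and 6037 TPM in replicate 2 (mean 6268 ± 327, SD, n = 2), from 78756 expected counts in replicate 1 and 82668 in replicate 2. It ranked number 4 of all mouse genes by mean level. Trbc1 stood at 3150 TPM in replicate 1 and 3565 TPM in replicate 2 (3358 ± 293), from 39844 counts in replicate 1 and 50035 in replicate 2, and ranked number 20. Trbc2 was above Trbc1 in both libraries, 2.06 times in replicate 1 and 1.69 times in replicate 2. Trbc1 thus held 32.6% of the beta constant TPM in replicate 1 and 37.1% in replicate 2. The posterior SD that the authors deposited for either gene's count was 114 reads in replicate 1 and 132 in replicate 2, which covers the division of shared reads in their estimate. Together the copies summed to 9650 TPM in replicate 1 and 9602 TPM in replicate 2 (9626 ± 34.4), a sum that rests less on that division. The sum was less spread between the libraries than either copy.

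Trac, the alpha constant gene (chromosome 14, 54220521 to 54224206, plus strand), stood at 853 TPM in replicate 1 and 844 TPM in replicate 2 (849 ± 6.07), from 5472 counts in replicate 1 and 6122 in replicate 2. This was the smallest spread of the 8 genes, 0.715% of the mean. The authors' deposited TPM intervals of the 2 libraries overlapped for Trac, at 758 to 799 in replicate 1 and 754 to 793 in replicate 2, and did not overlap for any other of the 8 genes. The level of those intervals is not given in the sources used here. No share of overlapping intervals was taken over all genes, so the overlap cannot be read as a trait of Trac. The beta constant sum was 11.3 times Trac in replicate 1 and 11.4 times in replicate 2. TPM divides each count by the length of the transcript model. The tables hold 1 Trac transcript, Trac-201, of 413 bases, 410 of them coding. GENCODE M21, a later annotation than the M4 used for the tables, also lists Trac-202, with a further last exon of 521 bases from 54223686 to 54224206. The Trbc1 and Trbc2 transcripts in the tables, of 737 and 692 bases, run past their 518 coding bases. From counts alone, with no division by length, the mean ratio was 21.7. How far the lack of the Trac-202 last exon bears on the level of Trac was not tested.

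The 3 CD3 genes lie side by side on chromosome 9 and were close to Trac in level. Cd3g (44969572 to 44980431, minus strand) stood at 1120 TPM in replicate 1 and 715 TPM in replicate 2 (917 ± 286), from 20036 counts in replicate 1 and 14755 in replicate 2. Cd3d (44981786 to 44987339, plus strand) stood at 819 TPM in replicate 1 and 841 TPM in replicate 2 (830 ± 15.6), from 20487 counts in replicate 1 and 23778 in replicate 2. Cd3e (44998740 to 45009627, minus strand) stood at 812 TPM in replicate 1 and 633 TPM in replicate 2 (723 ± 127), from 22195 counts in replicate 1 and 19550 in replicate 2. Cd3e, whose protein enters both CD3 dimers, was not the highest of the 3 transcripts by TPM in either library. That order depends on length: by counts Cd3e was the highest of the 3 in replicate 1, and the mean ratio of Cd3g to Cd3e was 0.829. The ratio of Cd3g to Cd3e was 1.38 in replicate 1 and 1.13 in replicate 2, and that of Cd3d to Cd3e was 1.01 in replicate 1 and 1.33 in replicate 2. Cd3g was above Cd3d in replicate 1 and below it in replicate 2. The ratio of Cd3d to Cd3g was 0.732 in replicate 1 and 1.18 in replicate 2. The order of these neighbours thus differed between the libraries. The 3 genes summed to 2751 TPM in replicate 1 and 2189 TPM in replicate 2 (2470 ± 398).

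Cd3d and Cd3g face away from each other, with starts 1355 bases apart, and their promoters are shown. Any link between these promoters and the levels was not tested. Both are the 250 bases before the start (RefSeq, GRCm38.p6, chr9:44980432-44980681 on the minus strand for Cd3g and chr9:44981536-44981785 on the plus strand for Cd3d). Capitals mark the E-box letters CANCTG on either strand, the kind of motif that the E proteins of thymocytes bind.
Cd3g promoter: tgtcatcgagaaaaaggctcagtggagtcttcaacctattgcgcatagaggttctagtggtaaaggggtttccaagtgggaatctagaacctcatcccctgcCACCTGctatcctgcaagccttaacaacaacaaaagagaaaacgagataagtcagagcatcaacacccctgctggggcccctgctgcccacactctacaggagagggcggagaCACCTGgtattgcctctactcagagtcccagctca
Cd3d promoter: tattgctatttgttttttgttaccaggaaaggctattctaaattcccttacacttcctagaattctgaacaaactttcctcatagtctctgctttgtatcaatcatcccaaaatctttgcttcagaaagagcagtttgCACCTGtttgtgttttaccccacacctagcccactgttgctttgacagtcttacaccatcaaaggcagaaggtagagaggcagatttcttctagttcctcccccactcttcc
The letters occur at 2 places in the Cd3g window and at 1 place in the Cd3d window, and 44.8% of all 32851 promoter windows of this length hold them. Promoters were found in the RefSeq table for 5 of the 8 genes. In those windows CANCTG occurs at 1 place for Cd247, at 2 places for Ptcra and nowhere for Cd3e. The ETS letters GGAAGT occur at 1 place each for Cd3d, Cd3e and Cd247 and in 19.7% of all windows, and GATAAG at 1 place for Cd3g and in 6.55%. TATAAA, found in 12.4% of all windows, and TGTGGT, found in 14.0%, occur in none of the 5. Both strands were searched, and overlapping matches were kept. A match is a run of letters and not evidence of binding.

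Cd247 and Ptcra were the lowest of the 8 genes. Cd247 (chromosome 1, 165788681 to 165877277, plus strand) stood at 159 TPM in replicate 1 and 401 TPM in replicate 2 (280 ± 171), from 4774 counts in replicate 1 and 13678 in replicate 2. The exact counting intervals (95%, Poisson) were 154 to 164 TPM in replicate 1 and 394 to 407 TPM in replicate 2, and did not overlap. Set against the mean of Cd3d, Cd3e and Cd3g, Cd247 was at 0.173 in replicate 1 and 0.549 in replicate 2. Natural killer cells also use the zeta chain, and of 6 natural killer genes 4 (Ncr1, Klrb1c, Klrk1 and Eomes) had 0 counts in both libraries. The other 2 were read in 1 library each, Klrd1 with 345 counts in replicate 1 and Nkg7 with 2173 counts in replicate 2, and the list summed to 21.2 TPM in replicate 1 and 121 TPM in replicate 2. Replicate 2 was also the deeper library, and TPM is already scaled to each library's total. The log2 ratio of replicate 1 over replicate 2 for Cd247 was -1.33 by TPM and -1.34 with edgeR factors. By DESeq2 factors it was -1.39, and per spike-in count -1.41. The part of depth or of other cells in the Cd247 difference was not tested. In RNA of a tissue, fewer cells of a type and less RNA per cell cannot be told apart.

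Ptcra (chromosome 17, 46755663 to 46763712, minus strand) stood at 71.1 TPM in replicate 1 and 57.0 TPM in replicate 2 (64.0 ± 9.96), from 1719 counts in replicate 1 and 1558 in replicate 2. It ranked number 2924 of all mouse genes, with 6.74% of genes above it. Counting intervals were 67.7 to 74.5 TPM in replicate 1 and 54.2 to 59.9 TPM in replicate 2 and did not overlap. Trac was 12.0 times the level of Ptcra in replicate 1 and 14.8 times in replicate 2, and the beta constant sum was 136 times in replicate 1 and 169 times in replicate 2. From counts alone, with no division by length, the mean ratio of Trac to Ptcra was 3.56. The Trac transcript in the tables lacks the last exon of Trac-202, and its part in the ratio of Trac to Ptcra was not tested.

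**Figure D2:**
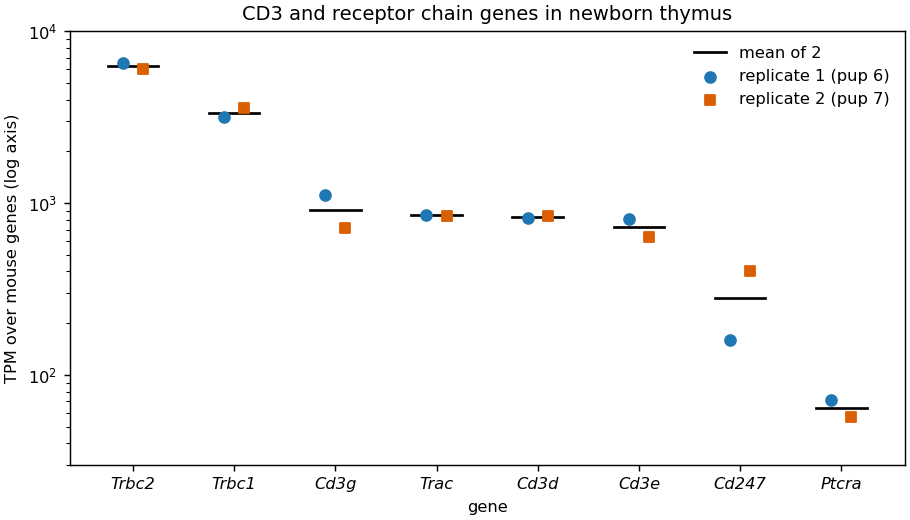
Level of each gene in TPM over mouse genes (log axis) in replicate 1 (circles) and replicate 2 (squares), with a line at the mean of the 2 libraries, from the highest mean to the lowest. Trbc2 and Trbc1 stand above the other genes, Cd3g, Trac, Cd3d and Cd3e lie together, and Cd247 has its libraries farthest apart on this axis, at 159 TPM in replicate 1 and 401 TPM in replicate 2.

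By mean level the order was Trbc2, Trbc1, Cd3g, Trac, Cd3d, Cd3e, Cd247 and Ptcra. Trac and Cd3d differed by 18.4 TPM and Cd3d and Cd3e by 107 TPM, less than the sums of their SDs (21.7 and 142 TPM). The libraries of Cd3g, from 715 to 1120 TPM, reach to both sides of those of Trac. Cd3g, Trac, Cd3d and Cd3e were therefore not ordered beyond their spread, and the other steps in the order were larger than the summed SDs. Within each library Trac was nonetheless above Cd3d, and Cd3d above Cd3e. Together the 8 genes held 13485 TPM in replicate 1 and 13093 TPM in replicate 2, which is 1.33% ± 0.0277 of mouse TPM, and 0.704% ± 0.0555 of mouse counts.

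Of the 8 genes 1, Cd247, differed at least 2-fold between the libraries, and it was higher in replicate 2. By the same measure 67.7% of the 9341 genes averaging at least 100 counts differed, 29.7% being higher in replicate 1 and 38.0% in replicate 2. With no minimum count it was 16.7% of all 43346 genes, most of which had few or no counts. Among the 3599 genes averaging at least 50 TPM, a minimum chosen after the data were seen and passed by all 8 genes, 43.7% differed. Apart from Cd247 and Ptcra, the chain genes averaged 723 TPM or more, and no share was taken among genes at that level. The 1 of 8 therefore cannot be read as less spread than in other genes of like level. At least 1.5-fold differences were found for 2 of the 8, Cd3g and Cd247, beside 78.9% of the 9341 genes, and 4-fold differences for 0 of the 8, beside 50.9%. The log2 ratio of replicate 1 over replicate 2, with 1 TPM added to each level, was -1.33 for Cd247, the lowest, and 0.65 for Cd3g, the highest. It was 0.36 for Cd3e, 0.31 for Ptcra, 0.11 for Trbc2, 0.01 for Trac, -0.04 for Cd3d and -0.18 for Trbc1. The median of the 8 was 0.06, beside -0.17 over the 9341 genes and 0.02 over the 3599. With 1 library from each pup there is nothing to test these differences against.

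**Figure D3:**
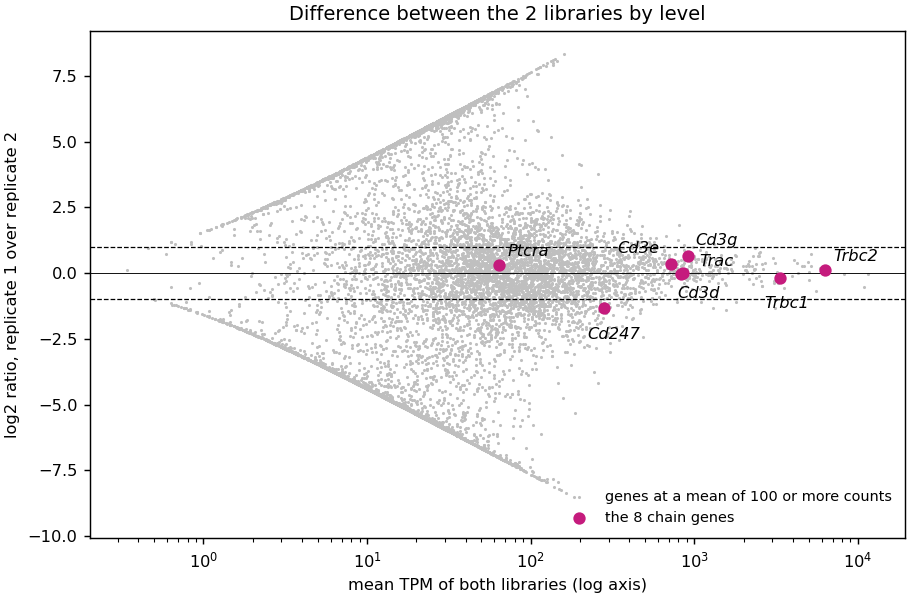
Log2 ratio of replicate 1 over replicate 2 against the mean TPM of both libraries (log axis), for the 9341 genes averaging at least 100 counts (grey) and the 8 chain genes (coloured and named); dashed lines mark 2-fold. Cd247, at -1.33, is the gene of the 8 outside the dashed lines, and the grey edges are genes with few or no counts in 1 library.

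The transcript tables hold 19 transcripts of the 8 genes, of which 11 had 1 or more counts in both libraries. Another 4 had them in 1 library, and the last 4 had 0 counts throughout. Cd3d, Cd3e, Trac, Trbc2 and Ptcra have 1 transcript each in the tables. For Cd3d that transcript is 1323 bases long in the tables and 1617 in GENCODE M21, and for Cd3e 1436 and 1462.

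Cd247 makes the zeta chain from Cd247-201 and, by joining exon 7 to another last exon, a form known as eta from Cd247-202. The join is shown because the estimated counts of Cd247-202 differed between the libraries. Such counts are of whole transcripts, not of reads across the join. Exon 7 (chr1:165859789-165859824) is in lower case and shared, and the first coding bases of the last exon are in capitals (chr1:165861004-165861066 for Cd247-201 and chr1:165866655-165866717 for Cd247-202, plus strand, GRCm38).
Cd247-201: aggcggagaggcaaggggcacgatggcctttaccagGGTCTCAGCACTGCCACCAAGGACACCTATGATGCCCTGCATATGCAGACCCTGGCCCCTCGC
Cd247-202: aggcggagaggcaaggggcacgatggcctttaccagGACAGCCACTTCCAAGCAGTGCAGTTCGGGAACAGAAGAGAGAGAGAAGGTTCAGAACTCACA
Past the join, 13 of 63 bases are identical at the same position. Cd247-201 stood at 127 TPM in replicate 1 and 367 TPM in replicate 2, which was 80.0% of the gene in replicate 1 and 91.5% in replicate 2. Its log2 ratio, -1.52, was farther from 0 than that of the whole gene. Cd247-202 had 791 counts in replicate 1 (31.8 TPM, 16.6% of the gene's counts) and 0 in replicate 2. In replicate 2 the rest of the gene was Cd247-207, an RNA annotated without a coding part, with 461 counts (27.6 TPM, 6.90%), and Cd247-205, with 221 counts (5.58 TPM, 1.39%), both with 0 counts in replicate 1. Cd247-204, a form with a kept intron, had 0 counts in replicate 1 and 13.6 in replicate 2, and the other 4 transcripts had 0 counts in both libraries.

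Several Cd247 forms other than zeta overlap Pou2f1, a gene of a transcription factor on the opposite strand. The last exon of the Pou2f1 transcript Pou2f1-208 spans 165865154 to 165876048 on the minus strand. All 683 of the 100-base stretches in the last exon of Cd247-202, and all 1133 in that of Cd247-205, occur in Pou2f1 transcripts when both strands are read. None of the 964 in the last exon of Cd247-201 do. Pou2f1-208 had 1634 counts in replicate 1 and 1973 in replicate 2. Pou2f1 as a whole had 4101 counts in replicate 1 and 2443 in replicate 2. Whether the libraries keep the strand is not given in the sources used here, so the 791 counts of Cd247-202 cannot be told apart from Pou2f1 RNA by sequence in that exon. Of the 359 stretches in the last exon of Cd247-207, 0 occur in another gene.

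Cd3g was read almost wholly as its full coding transcript. Cd3g-201 held 92.3% of the gene's TPM in replicate 1 and 95.2% in replicate 2. Cd3g-203, which lacks exon 2 and ends early, held 6.36% in replicate 1 and 4.52% in replicate 2, from 455 counts in replicate 1 and 233 in replicate 2. Cd3g-202 held 1.30% in replicate 1 and 0.309% in replicate 2. That model is 294 bases long in the tables and 2539 bases in GENCODE M21, where it keeps an intron. Cd3g-201 stood at 1034 TPM in replicate 1 and 680 TPM in replicate 2 (log2 ratio 0.60), and the gene as a whole had a log2 ratio of 0.65. For Trbc1, Trbc1-202, which like the Trbc2 transcript has 4 exons, held 91.5% in replicate 1 and 86.6% in replicate 2, and Trbc1-201 the remainder. Of the 413 stretches of 100 bases in Trbc1-201, 403 also occur in Trbc1-202, so the division between these models rests on few bases.

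**Figure D4:**
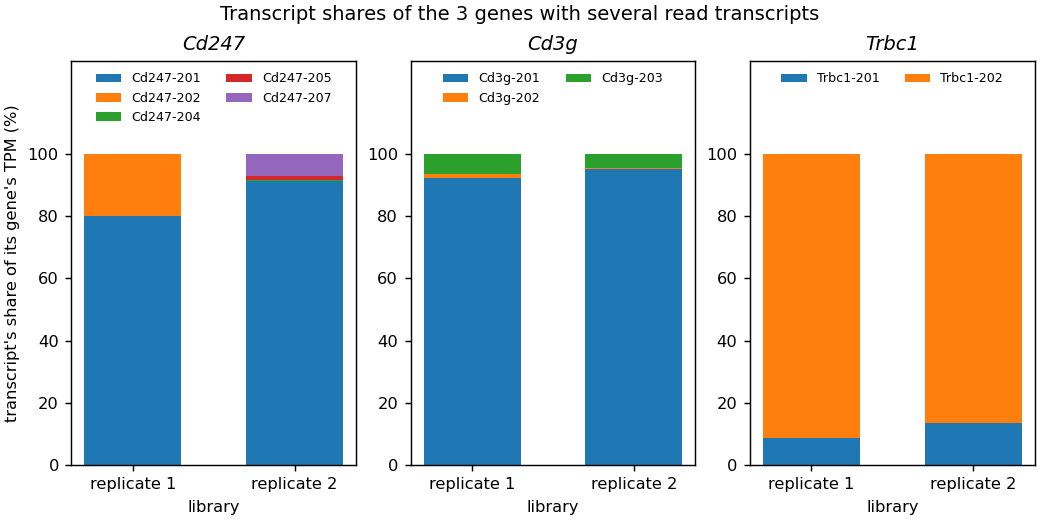
Share of each gene's TPM (percent, bars stacked to 100) held by each transcript with any counts, in replicate 1 and replicate 2, for Cd247, Cd3g and Trbc1. Cd247-201 takes 80.0% in replicate 1, with Cd247-202 as the rest, and 91.5% in replicate 2, where Cd247-207 takes 6.90%, while 1 transcript leads Cd3g and Trbc1 in both libraries.

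Coding genes within 20 kb of the 8 ranged from Prss2, with 0 counts in both libraries, to levels near those of the chain genes. Ube4a, a ubiquitin ligase gene 3971 bases from Cd3g, had 307 counts in replicate 1 and 5038 in replicate 2. Dad1, a subunit gene of the glycosylation enzyme of the endoplasmic reticulum, lies 11272 bases from Trac and stood at 8.11 TPM in replicate 1 and 367 TPM in replicate 2. Cnpy3, a chaperone gene 3448 bases from Ptcra, stood at 60.6 TPM in replicate 1 and 69.8 TPM in replicate 2, near the level of Ptcra itself. Trbv31, a beta variable segment 9338 bases beyond Trbc2 on the opposite strand, stood at 559 TPM in replicate 1 and 332 TPM in replicate 2. Within the same distance of the constant genes lie 33 J and D segments of 12 to 66 bases. All 33 have an effective length of 0 in the tables and 0 counts, so the tables carry no level for them.

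Genes that work with the receptor were taken as fixed lists. Of all 43346 mouse genes, 10275 in replicate 1 and 11764 in replicate 2 had 1 or more counts. The share of all genes read in both libraries is not given here. Numbers of listed genes read in both are therefore descriptions only. Of 20 genes of proximal signalling, 18 were read in both libraries and 2 in 1. By the 2-fold measure 4 were higher in replicate 1 and 8 in replicate 2, beside 29.7% and 38.0% of the 9341 genes, and the median log2 ratio was -0.32. Lck, the kinase that phosphorylates the CD3 and zeta tails, stood at 1424 TPM in replicate 1 and 1403 TPM in replicate 2 (1413 ± 14.2), above each of Cd3d, Cd3e and Cd3g. Lat, the adaptor that Zap70 phosphorylates, stood at 575 TPM in replicate 1 and 748 TPM in replicate 2. Ptprc, the phosphatase CD45, stood at 354 TPM in replicate 1 and 738 TPM in replicate 2. Of these 3 genes, Lck differed least between the libraries. Csk, the kinase that holds Lck in check, had 5304 counts in replicate 1 and 0 in replicate 2. The adaptor Nck1 had 0 counts in replicate 1 and 930 in replicate 2.

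Of 8 coreceptor and adhesion genes, 1 was at least 2-fold higher in replicate 1, beside 29.7% of the 9341 genes, and 4 were in replicate 2, beside 38.0%. Their median log2 ratio was -1.01, beside -0.17. Cd8b1 and Cd8a, the CD8 chains, stood at 824 and 231 TPM in replicate 1 and at 992 and 300 TPM in replicate 2, so Cd8b1 was near the CD3 genes in both. Cd4 stood at 110 TPM in replicate 1 and 208 TPM in replicate 2. Cd28, the costimulatory receptor, stood at 31.6 TPM in replicate 1 and 221 TPM in replicate 2. Cd5, an inhibitory surface receptor, had 0 counts in replicate 1 and 4071 in replicate 2.

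All 11 factors listed for receptor gene enhancers were read in both libraries, and their median log2 ratio was 0.11. At least 2-fold differences were seen for 5 that were higher in replicate 1, where the share of all genes was 29.7%, and for 3 that were higher in replicate 2, where it was 38.0%. Tcf7, a factor of early T-cell development, stood at 613 TPM in replicate 1 and 569 TPM in replicate 2. Ets1, which binds the ETS letters given above, stood at 208 TPM in replicate 1 and 328 TPM in replicate 2. The E protein genes Tcf3 and Tcf12 went opposite ways. Tcf3 stood at 109 TPM in replicate 1 and 2.87 TPM in replicate 2, and Tcf12 at 66.0 and 175 TPM. Lef1, a relative of Tcf7, stood at 22.1 TPM in replicate 1 and 168 TPM in replicate 2, and the 2 relatives thus differed in spread. Of 7 genes of receptor rearrangement and its stages, 6 were read in both libraries and reached the minimum count. Of the 6, 0 were at least 2-fold higher in replicate 1, against 29.7% of the 9341 genes, while 1 was in replicate 2, against 38.0%, and the median log2 ratio was -0.33. Rag1, a recombinase subunit, stood at 118 TPM in replicate 1 and 221 TPM in replicate 2.

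**Figure D5:**
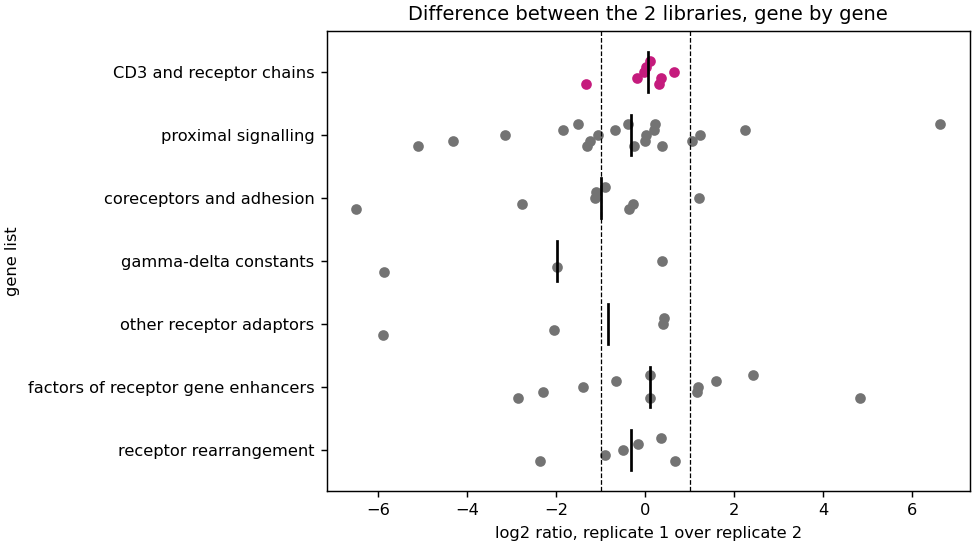
Log2 ratio of replicate 1 over replicate 2 for each gene averaging at least 100 counts (1 point per gene; vertical position within a row only separates points), for the 8 chain genes and 6 gene lists, with a bar at each median and dashed lines at 2-fold. The chain genes lie from -1.33 to 0.65, and the proximal signalling genes from -5.11 to 6.63.

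The gamma constant genes of the other T-cell receptor were lower than the beta constant genes. Tcrg-C1, Tcrg-C2 and Tcrg-C4 summed to 227 TPM in replicate 1 and 490 TPM in replicate 2, and Tcrg-C3 had 0 counts in both. The beta constant sum was 42.6 times the gamma sum in replicate 1 and 19.6 times in replicate 2. In replicate 1 Tcrg-C1 stood at 147 TPM and Tcrg-C2 at 79.2 TPM, with 0 counts for Tcrg-C4. In replicate 2 they stood at 114 and 318 TPM, with 650 counts for Tcrg-C4. Trdc, the delta constant gene, was not analysed here. Of 5 adaptor genes of other receptors, 3 were read in both libraries. Tyrobp, an adaptor of natural killer and myeloid receptors, stood at 84.0 TPM in replicate 1 and 354 TPM in replicate 2. Fcer1g, which can stand in for the zeta chain, stood at 63.9 TPM in replicate 1 and 48.5 TPM in replicate 2. Of the B-cell receptor chains, Cd79a had 0 counts in replicate 1 and 2 counts in replicate 2, and Cd79b had 0 in replicate 1 and 1527 in replicate 2. Of the B-cell genes, Pax5 had 0 counts in both libraries, and Ms4a1 had 0 in replicate 1 and 1 in replicate 2.

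The labelled tissue was checked against its markers. All 8 T-lineage markers were read in both libraries and summed to 3068 TPM in replicate 1 and 3378 TPM in replicate 2, and 6 of 7 thymic epithelial markers were, at 2569 TPM in replicate 1 and 2668 TPM in replicate 2. Foxn1, the factor that defines that epithelium, had 0 counts in replicate 1 and 1129 in replicate 2. Macrophage markers, 4 of 5 of them read in both libraries, summed to 446 TPM in replicate 1 and 548 TPM in replicate 2. By the 2-fold measure 2 of the 5 were higher in replicate 1 and 2 in replicate 2, beside 29.7% and 38.0% of the 9341 genes. Adgre1 had 2630 counts in replicate 1 and 0 in replicate 2, while Cd68 stood at 82.3 TPM in replicate 1 and 212 TPM in replicate 2. Dendritic cell markers, 1 of 5 read in both, summed to 91.9 TPM in replicate 1 and 14.0 TPM in replicate 2. These sums rest on Bst2, with 1249 counts in replicate 1 and 1 in replicate 2, and Flt3, with 0 and 1142. Siglech, Itgax and Xcr1 had 0 counts in both libraries. Erythroid markers summed to 3527 TPM in replicate 1 and 9132 TPM in replicate 2. Of the 5 averaging at least 100 counts, 4 were at least 2-fold higher in replicate 2, beside 38.0% of the 9341 genes. In replicate 1 it was 0, beside 29.7%. Their median log2 ratio was -1.33, beside -0.17 over the 9341 genes. Mouse genes held 25999043 counts in replicate 1 and 31902773 in replicate 2, and 10275 genes in replicate 1 and 11764 in replicate 2 had 1 or more counts.

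Genes nearest in level to each of the 8 were found by the distance between log2(TPM + 1) values over the 2 libraries of this 1 condition, among coding and constant genes. Cd3d was nearest to Trac, at a distance of 0.06 log2 units. Trac was nearest to the ribosomal protein gene Rpl24, at 873 TPM in replicate 1 and 833 TPM in replicate 2, and Cd3d came next. Cd3e was nearest to the ribosomal protein gene Rpl23, at 854 TPM in replicate 1 and 643 TPM in replicate 2. Cd3g was nearest to Cdk4, a cell cycle kinase gene, at 1137 TPM in replicate 1 and 737 TPM in replicate 2. The gene nearest to Cd247 was Rbm7, of an RNA-binding protein, at 155 TPM in replicate 1 and 393 TPM in replicate 2. Trbc2 lay nearest to the actin gene Actb, Trbc1 to the mitochondrial gene mt-Cytb and Ptcra to the sterol regulator gene Srebf2. With 1 condition and 2 libraries, such a distance reflects the levels themselves and 1 difference.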

How the data were processed

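Total RNA from newborn thymus was sequenced in 2 libraries, and both were used. The mm10 assembly is named in the labels, and M4 gene models in the deposited notes. The choice of aligner and quantifier is not given in the sources used here; column names, per the file headers, are those of RSEM. The authors deposited, for each gene and transcript of each library, expected counts (estimated reads that need not be whole), TPM, posterior means of both with an SD and an interval, and each transcript's percent of its gene. Deposited TPM sum to 1000000 over mouse genes, numeric entries and spike-ins together.

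Gene IDs were matched without version to GENCODE M21 on GRCm38, and 42462 of 43346 matched. TPM was rescaled to 1000000 over mouse genes, and ratios are log2 with a pseudocount of 1 TPM. Expected counts were rounded for edgeR 4.0.16 and DESeq2 1.42.0, which served only to scale libraries. With 1 group no test between groups was possible. SDs are of 2 libraries, and counting intervals cover counting error only, since no molecular identifiers are given. Named genes are the 8 members with their read transcripts, up to 5 of each gene list by level with members seen in 1 library alone, the nearest genes in level, and neighbours within 20 kb; not all of them are printed. The members and lists were chosen with earlier results of these data known. Some listed genes are not reported here.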

Additional observations from a re-analysis of the deposited data

How the results depend on the processing

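No paired analysis was possible because the 2 libraries form 1 group. Posterior mean TPM, TPM as deposited and TPM without mitochondrial genes put Cd3d at 810, 777 and 866 and Trac at 828, 794 and 885, and TPM as deposited put Trbc2 at 5864, all beyond their SD; dividing by another total rescales every gene, and for the posterior mean the cause was not tested. Ratios of expected counts, which take no account of length, gave 0.829 for Cd3g to Cd3e, below 1 where TPM gave 1.25, 21.7 for the beta constant sum to Trac and 3.56 for Trac to Ptcra. At 1.5-fold 2 of the 8 genes were past the threshold, Cd3g and Cd247, beside 78.9% of genes, and at 4-fold 0 were, beside 50.9%. Genes past 2-fold numbered 3338 of 5956 at a mean of 1000 or more counts and 1571 of 3599 at 50 TPM or more, the minimum chosen after the data were seen; fewer genes were tested in both. With no minimum count, 7235 of 43346 genes (16.7%) were past 2-fold. Leaving out either library leaves the value of the other, so it moves a mean of 2 by a fixed part of their SD and says nothing of stability: Cd247 ran from 159 to 401 TPM, and its ratio to the mean of Cd3d, Cd3e and Cd3g from 0.173 to 0.549. Leaving aside the omission of a library, 38 values of main results were counted as unmoved. They moved by less than the SD between libraries or, for counts of genes, by less than 1.5 times. Among them are the numbers of genes at 1.5-fold, at 4-fold and with no minimum count. With no minimum count the share nonetheless fell from 67.7% to 16.7%. With 2 libraries an SD has 1 degree of freedom. Of the 8 genes Ptcra had the fewest counts, and the minor transcripts of Cd247 and Cd3g had fewer still. What depth or the 13 pg of input RNA adds to the spread was not tested.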
